A study of Homo sapiens with 4 samples.

Results

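The 40 genes described here encode the DNA replication machinery and its S phase partners, the proteins that license and fire origins, copy DNA, supply nucleotides and histones, and commit a cell to S phase. They were chosen by name, as every probe set whose only annotated gene symbol was 1 of the 40. All 40 genes were found, on 81 of the 54613 tested probe sets, among 19775 named genes. A gene with several probe sets was represented by the one with the highest mean over all arrays. The study silenced TSPAN8 in SH-SY5Y cells, a human neuroblastoma line, and measured total RNA on Affymetrix arrays, 1 array per sample. The groups were TSPAN8 knockdown cells (2 arrays), given small interfering RNA through a self-delivering (Accell) system, and transfection control cells (2 arrays), both cultured for 72 h in medium with fetal bovine serum. The labels do not say what the control cells received, nor whether the samples of a group were grown separately. The p-values therefore rest on a spread between samples that may be technical.

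Origins are licensed for replication in G1, when the origin recognition complex, CDC6 and CDT1 load rings of MCM2 to MCM7 onto them. At the entry to S phase, CDC45 and the GINS complex join the ring to form the active helicase, and polymerases, clamp and clamp loader follow. Transcription of many of these genes is switched on at the G1 to S transition by E2F factors, once cyclin-dependent kinases have relieved the block by the retinoblastoma protein, and in neuroblastoma, as in other dividing tumour cells, the programme is a common readout of proliferation.

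TSPAN8, the silenced gene, had log2 signals of 6.25 and 6.35 on the knockdown arrays, against 7.52 and 7.62 on the control arrays. It fell by 1.27 ± 0.062 on the log2 scale (SE; limma, adjusted p = 0.0026), to 41.5% of the control signal. It was the only probe set to pass the threshold, an adjusted p under 0.05, which is 0.00183% of the probe sets. The array medians lay between 6.58 and 6.61, with the highest on knockdown replicate 2. Among neuroblastoma identity genes, 6 of 7 measured lay above the median signal, and TH, tyrosine hydroxylase, lay at the 18.3th percentile. These genes were below control for 6 of 7, none past the threshold, with summed linear signals of 25333 and 26089 on the knockdown arrays, against 27363 and 27239 on the control arrays. DBH, dopamine beta-hydroxylase, was the lowest at -0.35, with 11.66 and 12.02 on the knockdown arrays, against 12.19 and 12.18 on the control arrays. TH was the 1 gene above control, at 0.12 without overlap, and the others lay between -0.086 and -0.014. Mesenchymal or fibroblast markers were above control for 10 of 12 genes and below for 2, none past the threshold. Their summed linear signals were 22530 and 18235 on the knockdown arrays, against 18950 and 18020 on the control arrays. Their differences ran from -0.030 to 0.496, with a median of 0.18, where those of the 40 members ran from -0.16 to 0.14. The highest were DCN at 0.496, COL3A1 at 0.44 and SNAI2 at 0.34. DCN had 10.055 and 9.19 on the knockdown arrays, against 9.17 and 9.09 on the control arrays. The knockdown arrays lay wholly above the control arrays for 6 of these 12 genes, against 14.3% of all genes, and wholly below for 0. Schwann cell or melanocyte markers were above control for 5 of 6 genes, none past the threshold, where 44.3% of all genes were above control. Their summed signals were 719 and 723 on the knockdown arrays, against 710 and 692 on the control arrays. Their control signals lay between the 36.1th and 73.6th percentiles of all probe sets, and their differences between -0.0073 and 0.071. The part of other cells in the differences below was not tested.

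The promoters of these genes carry a shared sequence feature that the choice by name did not use. Of the 40 genes, 36 had an entry in the RefSeq promoter table (GRCh38.p14), which holds 250 bases before and 50 bases after each annotated start, and MCM4, MCM5, GINS4 and CCNE2 had none. An E2F-like octamer (TTTCCCGC, TTTGGCGC, TTTCGCGC or TTTGCCGC, on either strand) was found for 21 of the 36 genes (58.3%), against 824 of 15384 genes named on the array (5.36%) and 3.31% of all 35116 windows. The share was 13 of 30 among other replication factors, 3 of 19 among E2F, RB, cyclin and CDK regulators, and 1 of 18 among G2 and mitosis genes. The CCAAT box, read on both strands, was in 22 of the 36 members (61.1%) and in 41.7% of the genes on the array. It was in 14 of 18 G2 and mitosis genes (77.8%), a larger share than among the members. Other replication factors had it in 16 of 30 and the E2F, RB, cyclin and CDK regulators in 10 of 19. A match is a description of these letters and not evidence of binding, and the 2 words can overlap. The windows below belong to the 2 members with the lowest knockdown minus control difference, MCM7 and MCM2, and to RRM2 and CDT1, which stood among the 3 highest. Capitals mark the E2F-like octamers and the CCAAT boxes, each in its forward or reverse-complement spelling. They are written 5′ to 3′ on the strand of the gene, and the start is base 251.
MCM7 (chr7:100101348-100101647, minus strand): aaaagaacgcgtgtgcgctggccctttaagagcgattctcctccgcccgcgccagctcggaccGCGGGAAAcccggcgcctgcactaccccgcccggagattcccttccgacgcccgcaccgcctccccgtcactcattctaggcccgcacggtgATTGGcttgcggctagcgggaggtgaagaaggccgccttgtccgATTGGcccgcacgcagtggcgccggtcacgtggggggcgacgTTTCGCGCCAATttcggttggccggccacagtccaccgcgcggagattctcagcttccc
MCM2 (chr3:127598161-127598460, plus strand): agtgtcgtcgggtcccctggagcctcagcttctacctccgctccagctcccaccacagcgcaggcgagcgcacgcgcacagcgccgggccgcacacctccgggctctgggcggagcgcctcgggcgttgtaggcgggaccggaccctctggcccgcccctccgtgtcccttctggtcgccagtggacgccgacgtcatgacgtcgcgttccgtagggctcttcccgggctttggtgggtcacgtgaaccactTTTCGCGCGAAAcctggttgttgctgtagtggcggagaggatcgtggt
RRM2 (chr2:10122489-10122788, plus strand): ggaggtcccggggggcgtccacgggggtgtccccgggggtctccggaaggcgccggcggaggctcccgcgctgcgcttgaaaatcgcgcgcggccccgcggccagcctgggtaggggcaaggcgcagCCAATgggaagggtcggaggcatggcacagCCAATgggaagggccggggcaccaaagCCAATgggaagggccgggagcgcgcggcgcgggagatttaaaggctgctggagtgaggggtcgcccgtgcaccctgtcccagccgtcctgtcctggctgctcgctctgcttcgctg
CDT1 (chr16:88803539-88803838, plus strand): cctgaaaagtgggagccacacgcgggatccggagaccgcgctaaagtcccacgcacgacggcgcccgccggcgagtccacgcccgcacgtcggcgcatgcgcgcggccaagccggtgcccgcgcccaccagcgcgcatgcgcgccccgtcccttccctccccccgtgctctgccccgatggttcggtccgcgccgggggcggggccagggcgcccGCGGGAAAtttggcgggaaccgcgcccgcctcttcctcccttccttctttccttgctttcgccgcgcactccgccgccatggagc
The MCM7 window, the first of 3 listed for that gene, held 2 E2F-like octamers, beginning 187 and 9 bases before the start, the second running into a CCAAT box, beside 2 CCAAT boxes further upstream. The MCM2 window held 2 octamers that overlap in the palindrome TTTCGCGCGAAA, beginning 2 and 6 bases after the start. The CDT1 window held 1 octamer, 35 bases before the start. The RRM2 window, the first of 2, held no octamer of this spelling and 3 CCAAT boxes at 123, 93 and 66 bases before the start.

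**Figure D1:**
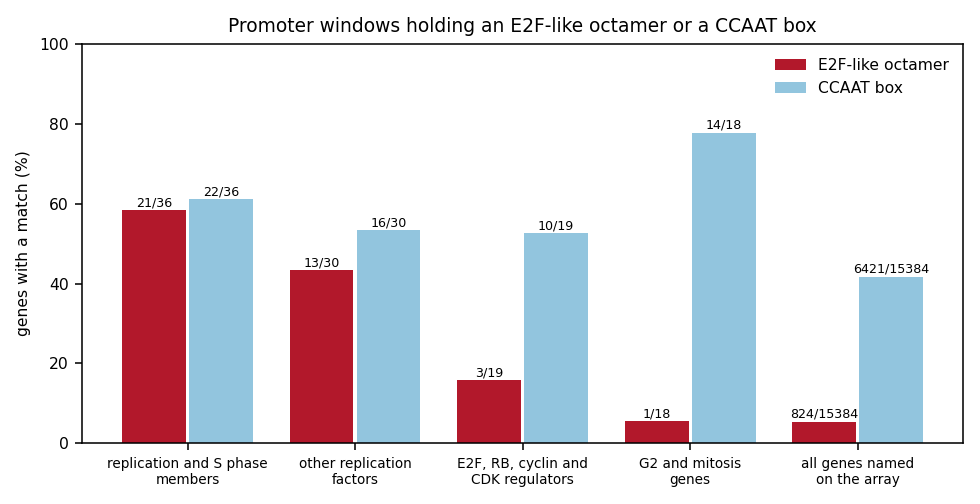
Share of genes (y axis, %) whose RefSeq promoter window holds an E2F-like octamer (red) or a CCAAT box (blue), with the number of genes over bars. The E2F-like octamer was in 21 of 36 members, 1 of 18 G2 and mitosis genes and 824 of 15384 genes named on the array.

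Members with and without the octamer spanned like ranges of difference between groups. Knockdown minus control ran from -0.16 to 0.11 with a median of 0.0096 in the 21 genes that held it, and from -0.12 to 0.14 with a median of 0.0073 in the 15 that did not, as a description without a test.

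None of the 40 genes passed the threshold after TSPAN8 knockdown, on any of the 81 probe sets, where 0.00506% of all genes and 0.00183% of all probe sets passed (limma, lowest adjusted p among the members 0.60). At an unadjusted p under 0.05 there was 1 member gene, MCM7, which lay below control, 2.5% of the members against 5.57% of all genes, and 0 above control against 2.39% of all genes. Both MCM7 probe sets met this, 2 of the 81 (2.47%), against 4.12% of all probe sets below control. By value alone, 22 members were above control and 18 below (55.0% above, where 44.3% of all genes were above), and the median difference was 0.0085 for the members and -0.0094 for all genes. That split depended on the scaling, with 27 above and 13 below after a second quantile normalization, and 16 above and 24 below after centring each array on its median. The share of all genes above control moved as well, to 46.2% and 36.4%, and the members' share was the larger under each of these scalings, without a test. The order of the medians changed with 1 array left out. Without knockdown replicate 1, 14 members were above and 26 below control, with a median of -0.026, against -0.013 for all genes. Without control replicate 2 the medians were -0.015 and -0.0081. In the fits without knockdown replicate 2 or without control replicate 1, the members' median was the higher. Of the 10151 genes within the members' range of control signal, 33.4% were above control in the main fit, with a median difference of -0.031. The median size of a difference, sign aside, was 0.046 for the members and 0.048 for all genes. In bulk samples a lower share of cells in S phase and less RNA per cell cannot be told apart.

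The intervals below bound the difference measured on these arrays. Like the p-values, they rest on a spread between samples that may be technical, and they are not adjusted for the number of genes. The 95% confidence interval of the difference, taken gene by gene, lay within 0.3 either side of 0 (1.23-fold) for 39 of the 40 members (97.5%, against 93.2% of all genes) and within 0.2 (1.15-fold) for 27 (67.5%, against 60.0%). These shares describe the precision of the arrays. These counts take the representative probe set of each gene, and the exception to the wider bound was MCM2, at -0.34 to 0.071. Over all 81 member probe sets the wider bound held for 76 (93.8%, against 93.2% of all probe sets). The second MCM7 probe set was among those beyond it, at -0.35 to -0.065. The standard errors ran from 0.051 to 0.090. The knockdown arrays lay wholly above the control arrays for 9 members (22.5%, against 14.3% of all genes) and wholly below them for 6 (15.0%, against 24.2%). The difference between groups was larger than the difference between the arrays of either group for 9 members (22.5%, against 26.5% of all genes).

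**Figure D2:**
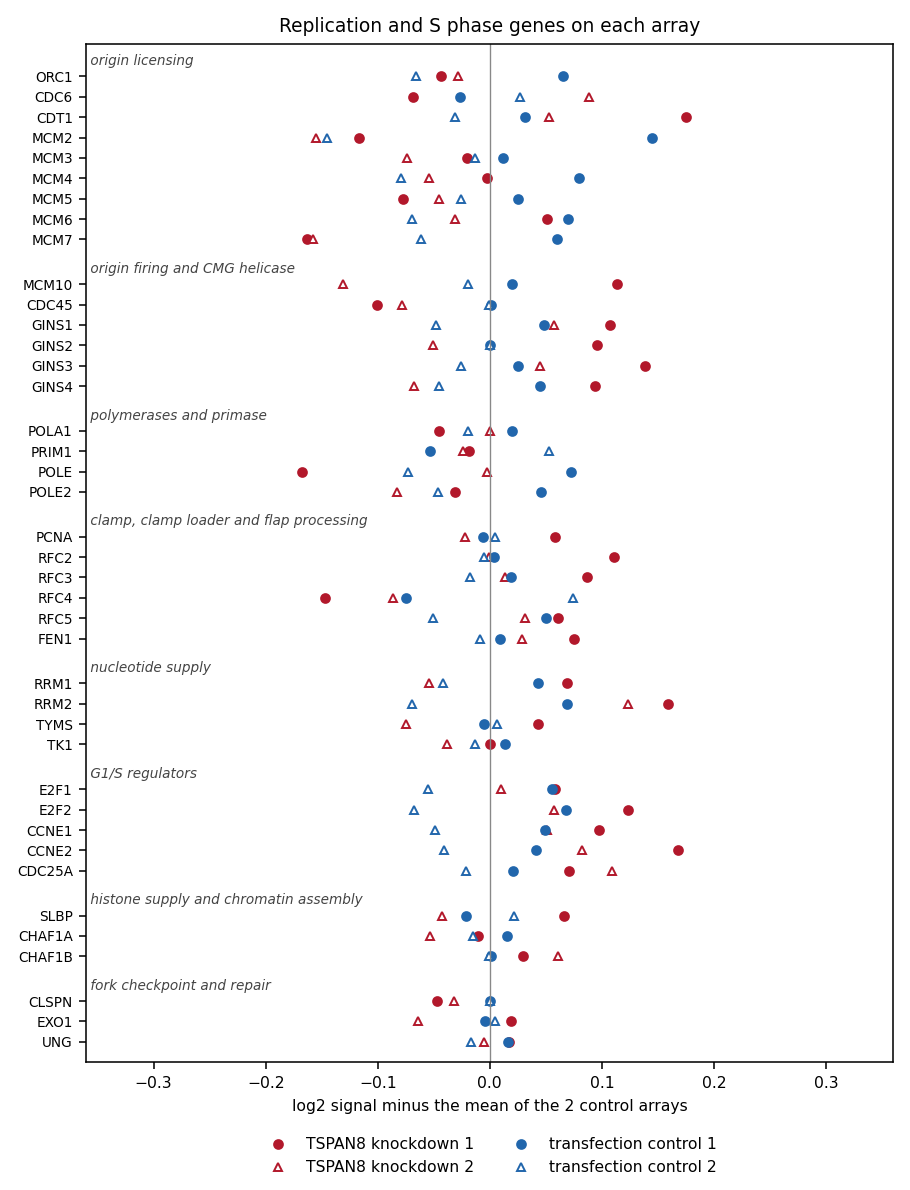
Log2 signal of each member's representative probe set minus the mean of its 2 control arrays (x axis), for TSPAN8 knockdown (red) and transfection control (blue) arrays, replicate 1 as filled circles and replicate 2 as open triangles. MCM7 and CDC45 had both knockdown arrays below both control arrays, and RRM2, CCNE2 and CDC25A had both above.

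Signals spanned a wide range, and since probes differ in affinity, their order is not one of transcript amount. The 3 brightest members on control arrays were TYMS, thymidylate synthase, PCNA, the sliding clamp, and RRM2, the regulatory subunit of ribonucleotide reductase. TYMS had log2 signals of 12.31 and 12.19 on the knockdown arrays, against 12.26 and 12.27 on the control arrays, and PCNA 11.70 and 11.62 against 11.63 and 11.64, so for both the groups overlapped. The 3 dimmest were ORC1, CLSPN and CHAF1B. ORC1, the largest subunit of the origin recognition complex, had 6.987 and 7.002 on the knockdown arrays, against 7.096 and 6.964 on the control arrays, and its groups overlapped. Even ORC1 lay at the 62.2th percentile of all probe sets, and the median member lay at the 86.8th.

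Among the 9 licensing genes, 3 were above control and 6 below, with a median of -0.036, and 0 passed. Of the MCM2 to MCM7 ring, 5 of 6 subunits were below control, with a median of -0.054, and MCM7 and MCM2 were the lowest of the 40 genes. The count below was 4 after a second quantile normalization, 6 after median centring and 3 to 6 with 1 array left out. It was 3 without control replicate 1, with a median of -0.013. In the control group replicate 1 was above replicate 2 for all 6 subunits (median 0.13), where 48.8% of all genes were. The ring's median was -0.092 between the arrays numbered 1 and -0.015 between those numbered 2, knockdown minus control. MCM7 had log2 signals of 10.32 and 10.33 on the knockdown arrays, against 10.54 and 10.42 on the control arrays, so that both knockdown arrays were below both control arrays. Its difference was -0.16 ± 0.059 (SE; limma, adjusted p = 0.61), or 89.5% of the control signal with a 95% interval of 81.4% to 98.4%. The second MCM7 probe set read 9.79 and 9.78 on the knockdown arrays, against 10.06 and 9.92 on the control arrays, a difference of -0.21 ± 0.061 (SE; limma, adjusted p = 0.60). Both probe sets thus placed the groups apart in the same direction, without passing over all probe sets.

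MCM2 was high on 1 control array only. Its signals were 9.75 and 9.71 on the knockdown arrays, against 10.01 and 9.72 on the control arrays, so the knockdown arrays lay beside control replicate 2. The difference was -0.14 ± 0.090 (SE; limma, adjusted p = 0.75), and 0.0087 without control replicate 1. MCM3 and MCM5 had both knockdown arrays below both control arrays, by differences of only -0.046 and -0.062, while MCM4 was at -0.028 and MCM6 at 0.0097, with MCM4 turning positive after the second quantile normalization and MCM6 negative after median centring. The 5 probe sets of MCM4 ran from -0.094 to 0.13.

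**Figure D3:**
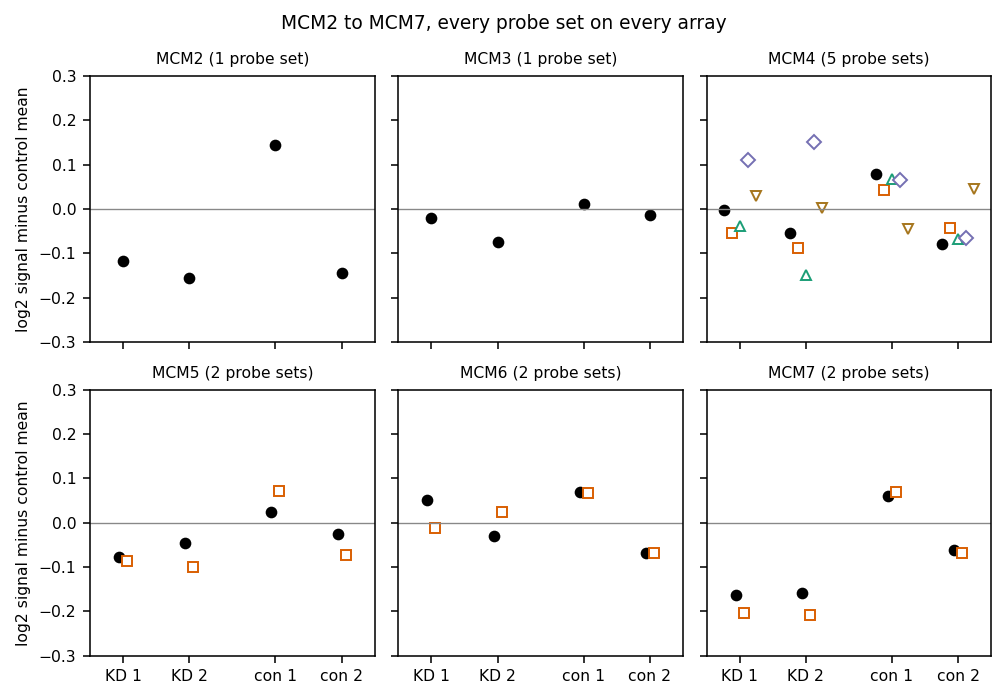
Log2 signal minus the control mean of the same probe set (y axis) for every probe set of MCM2 to MCM7 on the 2 knockdown (KD) and 2 control (con) arrays, with filled black circles for the representative probe set and open symbols for the others. Both MCM7 probe sets lay below control on both knockdown arrays, and MCM2 was raised on control replicate 1 alone.

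The loading factors lay on both sides of 0. CDT1, which brings the ring to the origin, had 9.10 and 8.97 on the knockdown arrays, against 8.95 and 8.89 on the control arrays, a difference of 0.11 ± 0.061 (SE; limma, adjusted p = 0.69) without overlap. The ending of this probe set (_x_at) marks probes that may bind other transcripts, and the second probe set was on the other side, at -0.098, with 7.38 and 7.35 on the knockdown arrays, against 7.57 and 7.35 on the control arrays. CDC6, the loading ATPase, was at 0.0096 and ORC1 at -0.036.

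The 6 genes of origin firing and of the active helicase had 4 above control and 2 below (median 0.018), and 0 passed. CDC45, the helicase cofactor, was the tightest of them, with 8.14 and 8.16 on the knockdown arrays, against 8.24 and 8.24 on the control arrays. Its difference of -0.090 ± 0.051 (SE; limma, adjusted p = 0.70) came from arrays that did not overlap and ranged from -0.10 to -0.079 with 1 array left out. GINS1, a subunit of the 4-protein GINS complex, had 10.14 and 10.09 on the knockdown arrays, against 10.08 and 9.98 on the control arrays, at 0.082 ± 0.057 (SE; limma, adjusted p = 0.77). GINS3 had 8.092 and 7.998 on the knockdown arrays, against 7.979 and 7.928 on the control arrays, at 0.091 ± 0.057 (SE; limma, adjusted p = 0.73), but its other probe set was at -0.080. GINS1 and GINS3 were thus above control without overlap, though by less than 0.1. GINS2 was at 0.022, but its other probe sets were at -0.13 and -0.042. GINS4 was at 0.013 and turned negative after median centring. MCM10, which helps activate the helicase, varied within the knockdown group, with 9.62 and 9.37, against 9.52 and 9.49 on the control arrays. Its difference of -0.0088 was positive after the second quantile normalization, and its other probe sets were at -0.015 and 0.056.

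All 4 genes of polymerases and primase were below control by value, with a median of -0.040, and 0 passed, with PRIM1 turning positive after the second quantile normalization. POLE, the catalytic subunit of the leading-strand polymerase, was at -0.085, POLE2, its accessory subunit, at -0.057, POLA1, the catalytic subunit of polymerase alpha, at -0.023, and PRIM1, the primase, at -0.021. The groups' arrays overlapped for each of the 4. Of the 6 clamp, clamp loader and flap genes, 5 were above control (median 0.048) and 0 passed. RFC4, a small subunit of the clamp loader, was the exception, with 10.48 and 10.54 on the knockdown arrays, against 10.55 and 10.70 on the control arrays, at -0.12 ± 0.065 (SE; limma, adjusted p = 0.70). Its partners RFC2, RFC3 and RFC5 were at 0.055, 0.050 and 0.046, and FEN1, the flap endonuclease, at 0.052, without overlap for FEN1 alone among these 4. The other FEN1 probe set separated the groups the opposite way, with 9.27 and 9.19 on the knockdown arrays, against 9.33 and 9.29 on the control arrays, at -0.078. RFC2 also had a probe set below control, at -0.033. Without knockdown replicate 1 the count above control in this group was 3 of 6.

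Nucleotide supply genes were split, with 2 above and 2 below control (median -0.0046) and 0 past the threshold. RRM2 had 11.57 and 11.54 on the knockdown arrays, against 11.48 and 11.34 on the control arrays, so the groups did not overlap. Its difference of 0.14 ± 0.062 (SE; limma, adjusted p = 0.64) was the highest of the 40 members, at 110.3% of the control signal, with a 95% interval of 99.8% to 121.8%. Its other probe set was at 0.052. RRM1, the catalytic subunit, was at 0.0073 on its brighter probe set and 0.16 on the other, so its probe sets gave different sizes. TYMS was at -0.016, with its other probe sets at -0.050 and 0.10, and TK1, thymidine kinase, was at -0.019.

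The 5 regulators of the G1 to S transition were all above control by value, with values from 0.034 to 0.13 and a median of 0.090, and 0 passed. The count was 5 of 5 under both other scalings and 4 of 5 without control replicate 2, when E2F1 changed sign. CCNE2, a cyclin E that activates CDK2, had 8.76 and 8.68 on the knockdown arrays, against 8.64 and 8.55 on the control arrays, at 0.13 ± 0.059 (SE; limma, adjusted p = 0.65). Its second probe set was at 0.13 as well. CCNE1, the other cyclin E, had 8.11 and 8.06 on the knockdown arrays, against 8.06 and 7.96 on the control arrays, at 0.074 ± 0.057 (SE; limma, adjusted p = 0.79). CDC25A, the phosphatase that activates CDK2, had 8.51 and 8.55 on the knockdown arrays, against 8.46 and 8.42 on the control arrays, at 0.090 ± 0.052 (SE; limma, adjusted p = 0.71). On these probe sets the 3 genes did not overlap between groups, but the other CCNE1 probe set was at 0.00021 with overlap, and CDC25A had others at 0.15 and at -0.043, the last wholly below control. E2F2, a transcription factor of the programme, had 8.66 and 8.59 on the knockdown arrays, against 8.60 and 8.47 on the control arrays, at 0.090 ± 0.063 (SE; limma, adjusted p = 0.77), with overlap. Its other 2 probe sets were at -0.022 and -0.019, and E2F1 was at 0.034.

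Of the 3 chromatin assembly and histone supply genes, 2 were above control, and of the 3 fork checkpoint and repair genes 1 was, with 0 past the threshold. CHAF1B, a subunit of the chromatin assembly factor CAF-1, had 7.44 and 7.47 on the knockdown arrays, against 7.41 and 7.41 on the control arrays, at 0.045, while its partner CHAF1A was at -0.032, positive after the second quantile normalization, and SLBP, which binds the stem-loop of histone messenger RNA, at 0.011. CHAF1A had 3 other probe sets, of which those at 0.085 and 0.10 were wholly above control and 1 was at -0.019. CLSPN, a mediator of the replication checkpoint, had 7.185 and 7.201 on the knockdown arrays, against 7.233 and 7.233 on the control arrays, at -0.040. The other CLSPN probe sets ran from -0.067 to 0.032. The exonuclease EXO1 was at -0.023 and the uracil glycosylase UNG at 0.0060.

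**Figure D4:**
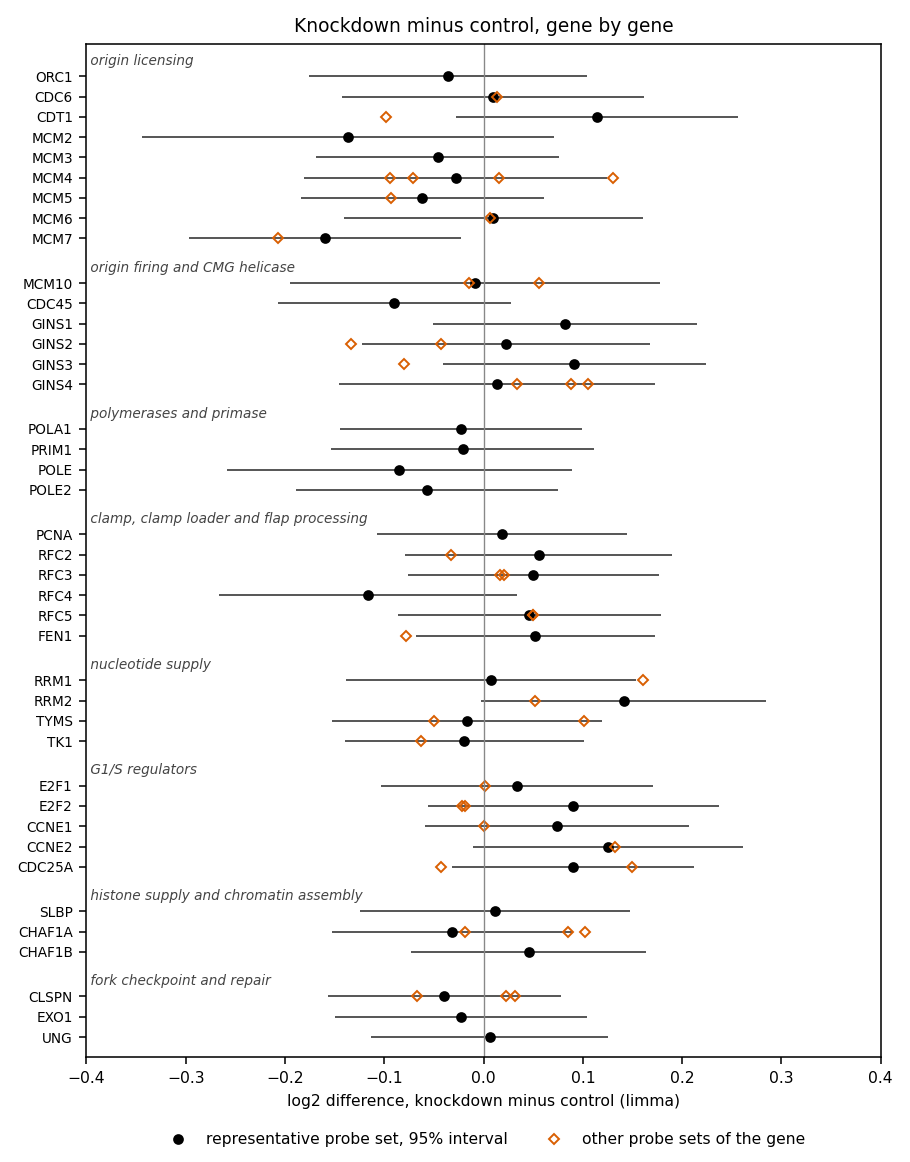
Knockdown minus control on the log2 scale (x axis) for the representative probe set of each member (black circle) with its 95% confidence interval from limma, and for the gene's other probe sets (open diamonds). All differences lay between -0.21 and 0.16, and MCM7 was the only member whose representative interval did not reach 0.

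Probe sets of the same gene often disagreed. Of 25 members with several probe sets, 12 had at least 1 probe set above and 1 below control. The other 13 were of 1 sign, 3 of them below control on every probe set (MCM5, MCM7 and TK1) and 10 above. With 1 array left out, 22 of the 40 members kept the sign of their difference in all 4 fits, 11 above and 11 below control.

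The arrays of a group differed from each other in a way that touched most members. Replicate 1 was above replicate 2 for 29 of the 40 members in the knockdown group and for 33 in the control group, against 50.2% and 48.8% of all genes. In both groups at once this held for 24 members (60.0%), against 24.3% of all genes and 27.5% of the 10151 genes within the members' range of control signal. The median difference was 0.048 in the knockdown group and 0.041 in the control group, where all genes had 0.00055 and -0.0026. The 10151 genes in that signal range had medians of 0.017 and -0.0033, with replicate 1 above replicate 2 for 56.8% and 48.4% of them. Each is 1 array against 1 array, with no replicate check and no test. After a second quantile normalization the knockdown median was 0.012, with 24 members above, and the control median 0.052, with 33 above. After median centring the medians were 0.075 and 0.036, with 33 and 29 members above, where 61.8% and 46.7% of all genes were. Whether equal numbers mark a shared day or culture is not given in the labels, and across the members the 2 differences correlated at r = 0.085 (40 genes of the same 4 arrays, not independent).

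Named by the rule for this pattern, the members with the widest differences of 1 sign in both groups were MCM2, MCM10, GINS4 and MCM6. Replicate 1 minus replicate 2 was 0.038 in the knockdown group and 0.29 in the control group for MCM2, and 0.24 and 0.040 for MCM10. For GINS4, at 7.67 and 7.51 on the knockdown arrays, against 7.62 and 7.53 on the control arrays, it was 0.16 and 0.090. For MCM6, at 10.63 and 10.55 on the knockdown arrays, against 10.65 and 10.51 on the control arrays, it was 0.082 and 0.14. For each of these 4 genes the replicates of at least 1 group differed by more than the groups did. The choice by wide replicate differences favours that outcome. It also held for most members, since the groups differed by more than both pairs of replicates for only 9 of 40 (22.5%, against 26.5% of all genes). RFC4 and CDC6 were the only members with replicate 1 below replicate 2 in both groups. Within replicate numbers, the median member was at 0.025 between the arrays numbered 1 and at 0.0078 between those numbered 2, knockdown minus control.

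**Figure D5:**
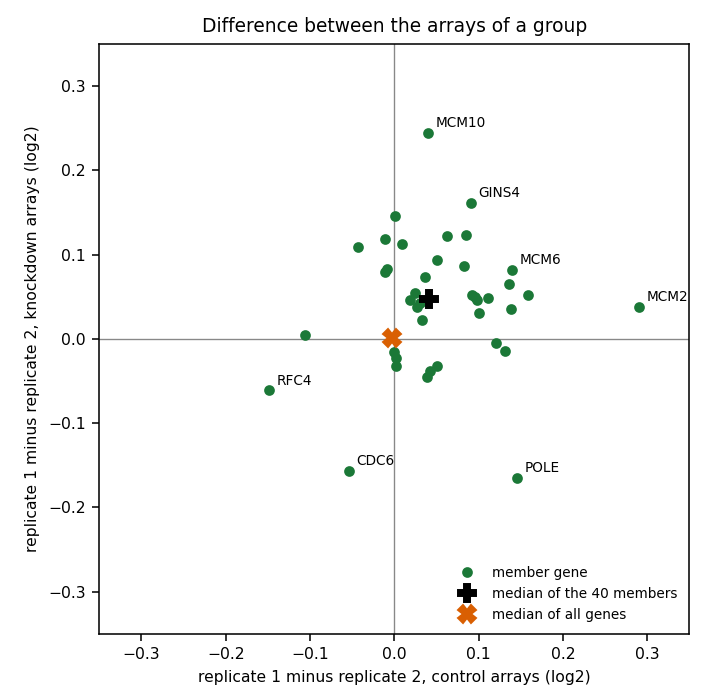
Replicate 1 minus replicate 2 on the log2 scale in the knockdown group (y axis) and in the control group (x axis), 1 point per member gene. The member median (black plus) lay at 0.048 in the knockdown group and 0.041 in the control group, and the median of all genes (orange cross) at 0.00055 and -0.0026.

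Other genes of the pathway gave the same count of 0 past the threshold (limma), with 4 of 81 (4.94%) at an unadjusted p under 0.05, all below control, where 5.57% of all genes were, so the share was near that of all genes. Of 35 other replication factors, 16 were above and 19 below control (median -0.0080). POLD1, the catalytic subunit of the lagging-strand polymerase delta, was the lowest, with 7.82 and 7.93 on the knockdown arrays, against 8.23 and 8.06 on the control arrays, at -0.27 ± 0.071 (SE; limma, adjusted p = 0.60). POLD2, its second subunit, was at -0.14 and TIMELESS, a fork protection factor, at -0.11. Of 24 E2F, RB, cyclin and CDK regulators, 11 were above and 13 below (median -0.0066). CDK4, a kinase that phosphorylates the retinoblastoma protein, had 11.02 and 11.08 on the knockdown arrays, against 11.25 and 11.22 on the control arrays, at -0.19 ± 0.054 (SE; limma, adjusted p = 0.60). CDK6, its paralogue, had 12.33 and 12.43 on the knockdown arrays, against 12.55 and 12.56 on the control arrays, at -0.18 ± 0.056 (SE; limma, adjusted p = 0.60), and TFDP1, the dimer partner of E2F factors, was at -0.12. For CDK4 and CDK6 the groups did not overlap, as for each gene named from these lists. Among all 81 genes the knockdown arrays lay wholly below the control arrays for 22 (27.2%, against 24.2% of all genes). They lay wholly above for 7 (8.64%, against 14.3%). Of 22 G2 and mitosis genes, 8 were above and 14 below (median -0.020), among them AURKB, a mitotic kinase, at -0.17, CENPF at -0.12 and CENPE, a kinetochore motor, at -0.099. In this last list replicate 1 was above replicate 2 in both groups for 15 of 22 genes (68.2%, against 24.3% of all genes). The medians of replicate 1 minus replicate 2 were 0.088 in the knockdown group and 0.074 in the control group. The count was 14 of 35 among other replication factors, with medians of 0.039 and 0.026. Among the E2F, RB, cyclin and CDK regulators it was 6 of 24, near the share of all genes, with medians of 0.023 and -0.0041.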

How the data were processed

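Total RNA of 4 samples (2 TSPAN8 knockdown, 2 transfection control) was measured on 1 array each. The deposited values are log2 signals per probe set, made by the authors with RMA (background correction, quantile normalization and probe summary) in R 3.0.1, per the submitters' processing notes, without settings. Log2 summaries compress changes near background. With 4 arrays, their number limits the precision. No detection call or scan date was used here.

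Of 54675 probe sets, AFFX controls were left out, leaving 54613. Of these, 41091 had 1 gene symbol in the platform annotation, 1801 several and 11721 none listed, and only the first were named. Knockdown minus control was fitted with limma 3.58.1 (lmFit, eBayes, R 4.3.3) over all 54613 probe sets and all 4 arrays, with no covariate, two-sided p-values, Benjamini-Hochberg adjustment and a threshold of 0.05. The prior had 5.80 degrees of freedom. The fit was tested on simulated data.

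Members, roles, lists and alternatives were chosen with earlier results of these data known. Array values are given for TSPAN8, for the 12 members of smallest p, the 3 brightest, the 3 dimmest and the 4 with the widest replicate difference of 1 sign, and, of each further list, the 3 genes of smallest p are named. Alternatives were a second quantile normalization, centring on array medians, removal of dim probe sets, array weights, a variance prior with trend and robust fit, the replicate block, probe sets free of _x, _s and _a endings, gene means, and each array left out. Promoter words were searched in Python 3.11.15, and figures were drawn with matplotlib 3.10.9.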

Additional observations from a re-analysis of the deposited data

How the results depend on the processing

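The counts of member probe sets and member genes past the threshold were 0 under every refit run, including each array left out (0 to 0), and 2 and 1 at an unadjusted p under 0.05. For the other pathway genes the count was 0, with 4 at an unadjusted p under 0.05 (4.94%, against 5.57% of all genes below control) and 0 to 1 with 1 array left out. The 1 was POLD1 without knockdown replicate 2 (-0.32; limma, adjusted p = 0.027), where 1026 of all probe sets passed in a fit that takes the spread of the single knockdown array from the control group. The median difference over the members (0.0085) ran from -0.026 without knockdown replicate 1 to 0.047 without knockdown replicate 2, and from -0.0053 to 0.029 over the other settings. The median of replicate 1 minus replicate 2 in the knockdown group was 0.012, in place of 0.048, after a second quantile normalization. What causes these shifts was not tested.

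TSPAN8 stayed between -1.32 and -1.22 with 1 array left out. With the replicate number as a block it was at -1.27 with an adjusted p of 0.16, and 0 of all probe sets passed, in a fit with fewer residual degrees of freedom. Equal numbers showed deviations that correlated at 0.051 over all probe sets, from 2 pairs that no label ties together.

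Of the members chosen by p, brightness or replicate difference, 3 changed sign under another scaling. MCM10 was at 0.022 after a second quantile normalization, and MCM6 at -0.0041 and GINS4 at -0.00042 after median centring. With 1 array left out, MCM2 ran from -0.28 to 0.0087, MCM10 from -0.13 to 0.11, MCM6 from -0.060 to 0.079, GINS4 from -0.067 to 0.094, ORC1 from -0.10 to 0.030, PCNA from -0.021 to 0.058 and TYMS from -0.076 to 0.043. The other 13 of these chosen members, MCM7 (-0.22 to -0.10) and RRM2 (0.072 to 0.21) among them, kept their sign in each of these fits, and none passed the threshold. Over all 40 members, 29 kept their sign under both other scalings. Besides MCM10, MCM6 and GINS4, those that did not were CDC6, MCM4, PRIM1, RRM1, SLBP, CHAF1A, EXO1 and UNG.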

Other observations

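Values of 3 genes near MCM7 on chromosome 7 were read beside it. AP4M1, an adaptor complex subunit whose annotated gene overlaps the MCM7 start, had log2 signals of 8.14 and 8.11 on the knockdown arrays, against 8.09 and 8.20 on the control arrays, with overlap, at -0.025 ± 0.059 (SE; limma, adjusted p = 0.96). COPS6, a subunit of the COP9 signalosome on the other side, was at -0.012 on its brighter probe set and 0.032 on the other. TAF6, a subunit of the general transcription factor TFIID, had 8.501 and 8.522 on the knockdown arrays, against 8.590 and 8.600 on the control arrays, without overlap and below control like MCM7, at -0.083 ± 0.051 (SE; limma, adjusted p = 0.72). These genes were chosen with values of the data in view, and their differences from MCM7 were not tested. MIR25, MIR93 and MIR106B lie within MCM7 in the RefSeq annotation, and their mature products were not analysed here.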
